A study of Mus musculus with 8 samples.

Results

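The comparison described here sets differentiating myoblasts labelled KI, from mice with a knock-in at UTX, beside their knock-in controls, labelled Ctrl-KI. UTX is the histone demethylase encoded by Kdm6a. The KI and Ctrl-KI groups are 4 of the 8 libraries of the series, 2 per group, all from female mice of strain B6/129. The labels name no allele, driver or genotype for either group, so what the knock-in changes in UTX, and whether the controls carry it in part, is not stated in the sources used here. Per the protocols, reporter-positive satellite cells were sorted, grown with 20% serum, FGF and 2.5 µM 4-OH-tamoxifen, and differentiated for 24 h before total RNA was taken; those protocols name only UTX knockout and wild-type mice carrying the TdT reporter. The other 4 libraries are 1 UTX knockout (KO) and 1 wild-type (WT) library from each sex. For the female KO the labels give UTX-Floxed, Pax7-CreER and Rosa26-Floxed-TdTomato, a Cre driven in satellite cells with a floxed reporter, and the female WT has the same alleles without UTX-Floxed. The male libraries have no genotype beyond their KO or WT titles.

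The deposited table held 28748 loci with 1 pooled column per group. Of these, 22777 had a gene symbol, and the 11084 with an estimate of status OK in both columns and at least 1 FPKM in 1 column are the genes described. FPKM scales fragments by transcript length and by mapped fragments, so levels can be compared between genes. Each value came with a lower and an upper bound from the authors, given below in brackets, and their confidence level is not stated. The median gene's bounds spanned 40.0% of its value in Ctrl-KI and 39.8% in KI. With the 2 libraries of a group merged in 1 column, no spread between libraries could be measured, so there is no test and no p-value. A difference is called here when it reaches 2-fold on the log2(FPKM + 1) scale, which understates ratios of low genes, and it is also stated whether the deposited bounds overlapped.

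Satellite cells are the stem cells of skeletal muscle. On differentiation they leave the cell cycle, express Myog, fuse and build sarcomeres. UTX removes methyl groups from lysine 27 of histone H3, a mark written by the PRC2 complex and linked to gene silencing, and it also works as a subunit of the MLL3/4 complexes, which act at enhancers. Muscle cells lie in an extracellular matrix of collagens, laminins and proteoglycans made largely by fibroblast-like cells, pericytes and, to a lesser extent, by the muscle cells themselves. TGF-beta signalling is a known inducer of many matrix genes.

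Many of the 15 genes with the highest ratios code for matrix proteins or secreted signals, beside the surface proteins Cd200, Cd248 and Pdgfrb and the lysozyme Lyz2. The upstream sequences of 4 of the 15 are shown as reference context. All 4 genes stood at or below 8.22 FPKM in Ctrl-KI and at or above 32 FPKM in KI, as did others of the 15. The sequences shown are the plus-strand ones among the 8 genes with a single promoter entry. They are the 250 bases before the RefSeq start in build GRCm38.p6, all on the plus strand: Col1a2 (a chain of type I collagen) at chr6:4505368-4505617, Bgn (the proteoglycan biglycan) at chrX:73483351-73483600, Inhba (the activin A subunit) at chr13:16011601-16011850 and Nid1 (the basement membrane linker nidogen-1) at chr13:13437352-13437601. Capitals mark matches on either strand to the motifs searched.
Col1a2: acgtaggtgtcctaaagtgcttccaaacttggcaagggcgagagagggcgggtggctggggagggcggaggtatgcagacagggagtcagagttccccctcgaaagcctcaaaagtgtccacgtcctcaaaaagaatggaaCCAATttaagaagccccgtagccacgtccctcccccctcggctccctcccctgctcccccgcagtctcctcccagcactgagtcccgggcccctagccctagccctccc
Bgn: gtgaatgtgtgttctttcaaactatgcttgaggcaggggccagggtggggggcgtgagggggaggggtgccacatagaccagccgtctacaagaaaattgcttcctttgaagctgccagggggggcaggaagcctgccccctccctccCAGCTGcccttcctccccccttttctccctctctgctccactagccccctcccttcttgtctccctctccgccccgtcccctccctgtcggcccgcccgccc
Inhba: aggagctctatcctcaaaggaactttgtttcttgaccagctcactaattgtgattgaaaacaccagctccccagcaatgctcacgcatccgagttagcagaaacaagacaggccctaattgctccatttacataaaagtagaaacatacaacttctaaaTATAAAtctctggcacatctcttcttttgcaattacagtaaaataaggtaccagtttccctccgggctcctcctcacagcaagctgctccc
Nid1: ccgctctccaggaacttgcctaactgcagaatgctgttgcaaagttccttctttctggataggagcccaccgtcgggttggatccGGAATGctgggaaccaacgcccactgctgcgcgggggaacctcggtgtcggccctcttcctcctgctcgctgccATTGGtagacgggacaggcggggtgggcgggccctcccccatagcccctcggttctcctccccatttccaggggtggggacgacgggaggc

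The motifs searched were the E-box CANNTG bound by myogenic factors, the AP-1 motif TGANTCA, the motif GGAATG known for TEAD factors, the CCAAT box and the motif TATAAA known from core promoters. Col1a2 held CCAAT at -109 to -105 from the start, and Bgn held the E-box CAGCTG at -102 to -97. In Inhba, TATAAA lay at -91 to -86, and Nid1 had GGAATG at -165 to -160 and CCAAT on the opposite strand, printed as ATTGG, at -91 to -87. None of these 4 sequences held TGANTCA. Over all 32851 RefSeq promoter windows of this length, 66.2% held the E-box, 6.75% TGANTCA, 12.6% GGAATG, 33.8% CCAAT and 12.4% TATAAA. The GC content was 62.0% for Col1a2, 64.4% for Bgn, 43.2% for Inhba and 64.4% for Nid1, beside a median of 52.4%. Of the 15 genes with the highest ratios, 8 had a single entry in the promoter table. A match is a description of the letters only, since no binding or chromatin data are part of these tables.

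Kdm6a RNA was at nearly the same level in both groups. It stood at 12.8 FPKM (10.3 to 15.2) in Ctrl-KI and 13.2 FPKM (10.7 to 15.8) in KI, a log2 ratio of 0.05. Because the allele is not given, this gene-level value checks neither label. Its paralogue Kdm6b, which removes the same mark, is merged with Tmem88 on 1 locus, at 30.2 and 34.6 FPKM. Uty, the Y-linked paralogue, was listed at 0 in Ctrl-KI and at 0.00454 FPKM in KI, and all 7 Y-linked genes were under 1 FPKM in both columns. Xist, the RNA that silences 1 X chromosome in female cells, was at 34.8 and 38.8 FPKM. Of the UTX and MLL3/4 complex list 10 loci were kept and of the PRC2 list 10, and no locus of either reached 2-fold or had bounds apart. Ezh2, the methyltransferase of PRC2, was at 10.8 and 12.4 FPKM, and Ash2l, a core MLL complex subunit, had the lowest ratio of the first list at -0.23 (35.7 and 30.3 FPKM). The Rosa26 transcript Gt(ROSA)26Sor, whose locus carries the reporter in the KO mice, was at 20.2 FPKM (8.48 to 31.9) and 12.2 FPKM (0 to 25.7), with bounds that overlap.

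In the whole comparison, 428 of the 11084 genes were at least 2-fold higher in KI, which is 3.86%, and 99 were at least 2-fold lower, which is 0.893%. The deposited bounds were apart for 411 of the 428 and 89 of the 99. Over all genes, bounds were apart with KI higher for 917 (8.27%) and with KI lower for 413 (3.73%). The median log2 ratio was -0.04. Most of the higher calls came from low genes. Of the 428, 220 were under 1 FPKM in Ctrl-KI, so that they entered only through a KI value of at least 1 FPKM and had to be higher. Among the 10585 genes with at least 1 FPKM in Ctrl-KI, 208 were 2-fold higher (1.97%) and 99 lower (0.935%), and the higher calls then made up 67.8% of all calls in place of 81.2%. This filter acts on Ctrl-KI alone and took out no lower call. Of the 99, 32 were under 1 FPKM in KI, 21 of them listed at 0. These 32 entered only through Ctrl-KI and had to be lower, so the 67.8% is not free of the filter either. By Ctrl-KI level, 4.70% of genes from 1 to 5 FPKM were 2-fold higher and 0.661% lower. Above 100 FPKM the order turned, with 0.389% higher and 1.68% lower, and the median ratio there was -0.15. Small RNA genes made up 45 of the 527 calls, and 36 of these 45 were listed at 0 in 1 column.

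**Figure D1:**
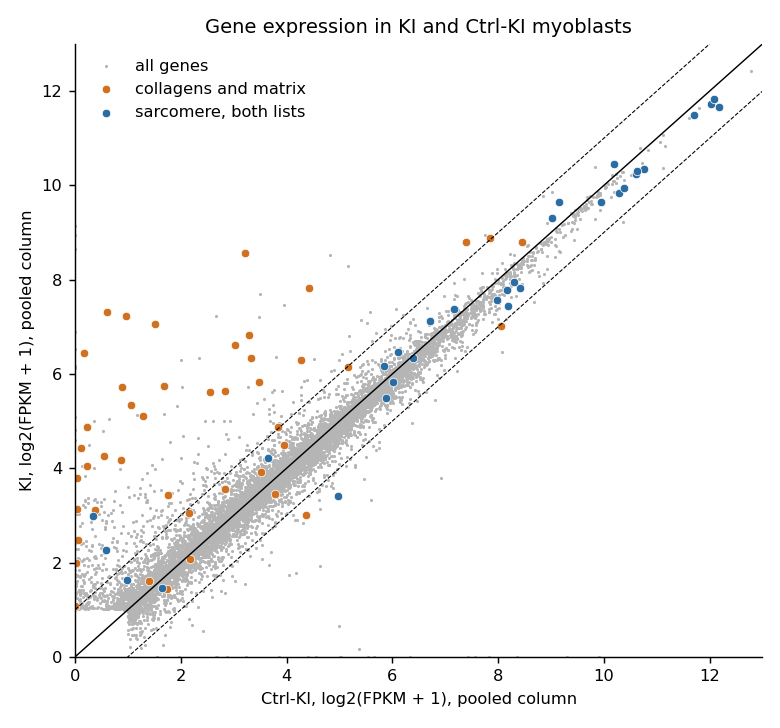
Level of every kept gene in the pooled Ctrl-KI column (x axis) and the pooled KI column (y axis), both as log2(FPKM + 1). The solid line marks equal levels, the dashed lines 2-fold, and members of the matrix list (orange) and of both sarcomere lists (blue) are drawn over all genes (grey). Most matrix genes lie above the upper dashed line, and the sarcomere genes follow the line of equal levels except at the low end and for Myl2.

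The collagens and matrix list holds the structural proteins around the cell and the enzymes that cross-link them. Of its 47 genes 44 were kept, 32 were at least 2-fold higher in KI and 2 at least 2-fold lower, with a median log2 ratio of 2.77 beside -0.04 over all genes. Bounds were apart for 36 higher and 2 lower. Since 15 of the 44 were under 1 FPKM in Ctrl-KI, the count that does not follow from the filter is that over the other 29, of which 17 were 2-fold higher beside 1.97% of all such genes, 2 were lower and the median ratio was 1.40. Summed over the list, the level was 1238 FPKM in Ctrl-KI and 3635 FPKM in KI.

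The fibrillar collagens headed the ranking. Col1a1, at chr11:94797518-94814360 in the mm9 build of the files, was at 0.515 FPKM (0.388 to 0.643) in Ctrl-KI and 158 FPKM (127 to 189) in KI, a log2 ratio of 6.72. Its partner chain Col1a2, at chr6:4455697-4491543, was at 0.943 FPKM (0.733 to 1.15) and 149 FPKM (120.3 to 178), a ratio of 6.27. Both chains of type I collagen therefore lay under 1 FPKM in the control column and above 100 FPKM in KI. They entered only through KI, so the filter fixed their order but not the size of their ratios. Col3a1, the type III chain, was at 8.72 and 112 FPKM (ratio 3.54). The type V chains Col5a1 and Col5a2, which set fibril diameter, were at 10.1 and 56.1 FPKM and at 18.2 and 77.9 FPKM. None of these 5 pairs of bounds overlapped. The 3 measured chains of beaded-filament type VI collagen were all under 1 FPKM in Ctrl-KI and had to be higher by the filter. Col6a3 was at 0.0733 and 20.5 FPKM, Col6a1 at 0.462 and 18.2, and Col6a2 at 0.0299 and 7.85.

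Basement membrane genes were split. The type IV chains, which form its network, were higher, with Col4a1 at 9.03 FPKM (7.33 to 10.7) and 79.8 FPKM (64.5 to 95.1) (ratio 3.01) and Col4a2 at 6.16 and 48.8 FPKM (ratio 2.8). Nid1 was at 1.08 FPKM (0.849 to 1.31) and 39.7 FPKM (32.2 to 47.2), while its paralogue Nid2 was lower, at 19.5 FPKM (14 to 25.1) and 7.07 FPKM (4.41 to 9.72) (ratio -1.35). The 2 nidogens, which share a role, had opposite ratios with bounds apart in each. Of the laminin chains, Lamb1 was at 13.3 and 28.4 FPKM and Lamc1 at 14.5 and 21.4, a ratio of 0.53 that missed 2-fold. Lama5 was at 12.8 and 10 FPKM with overlapping bounds.

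Enzymes and adapters of fibre assembly were among the highest ratios. Lox, lysyl oxidase, which cross-links collagen and elastin, was at 1.85 FPKM (1.45 to 2.24) and 132 FPKM (106 to 158) (ratio 5.55), and Loxl2 of the same family at 0.841 and 51.7 FPKM (ratio 4.84). The related Loxl1 was already at 34.8 FPKM in Ctrl-KI and at 69.9 FPKM in KI, just under 2-fold at 0.99. Postn, the matricellular protein periostin, was at 0.126 FPKM (0.0716 to 0.18) and 85.9 FPKM (69.5 to 102). The small proteoglycans differed in size and sign: Bgn was at 8.22 FPKM (6.61 to 9.83) and 379 FPKM (305 to 452), Dcn (decorin) at 0.171 and 28.3 FPKM, and Ogn (osteoglycin) was lower at 264 and 129 FPKM (ratio -1.03). Fn1, fibronectin, which carries the first assembled fibrils, was at 20.6 FPKM (16.7 to 24.5) and 225 FPKM (178 to 271). Genes with a high control level had smaller ratios: Sparc, a collagen-binding protein, was at 228 and 468 FPKM (ratio 1.03), Thbs1 (thrombospondin-1) at 166 and 441 FPKM (ratio 1.4), and Spp1 (osteopontin) at 350.2 and 448 FPKM with overlapping bounds. Matrix proteins outside these families with at least 2-fold higher values were Fbln2 (7.08 and 97.3 FPKM), Fbn1 (1.44 and 33.5), Tnc (2.21 and 52.7) and Mfap5 (0.171 and 15.5).

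**Figure D2:**
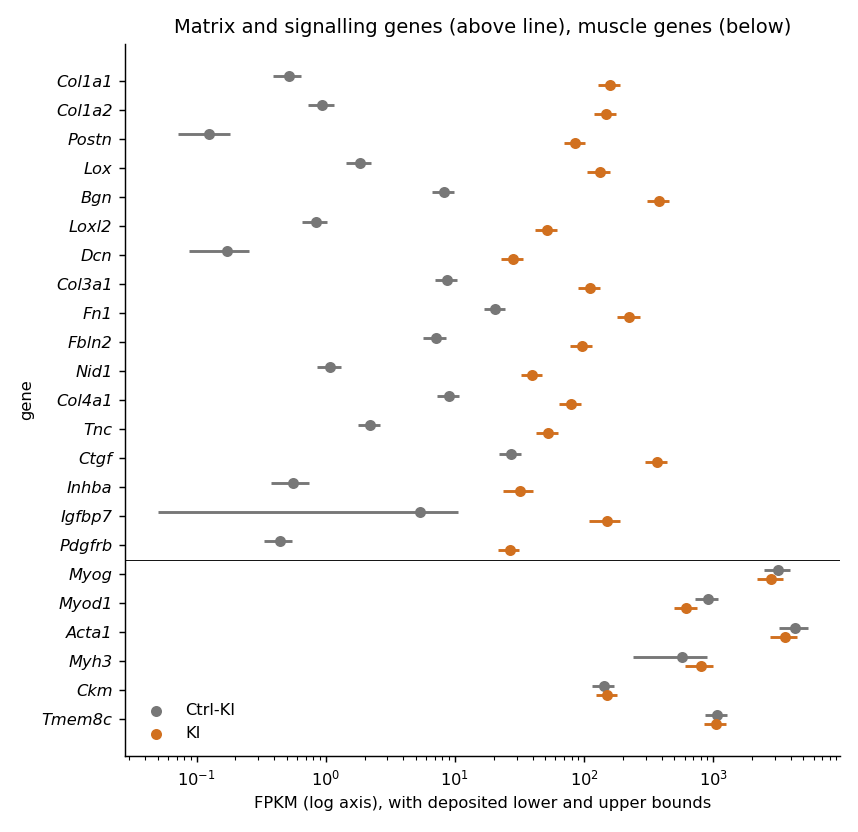
FPKM on a log axis (x) with the deposited lower and upper bounds as bars, for 23 genes (y), in Ctrl-KI (grey) and KI (orange). The lower bound of Igfbp7 in Ctrl-KI is 0 and its bar is cut at the left. For the 17 matrix and signalling genes above the line the KI bar lies right of the Ctrl-KI bar without overlap, and for the 6 muscle genes below it the bars overlap.

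Proteases and their inhibitors had smaller ratios as a list. Of 15 kept genes, 6 were 2-fold higher (3.86% over all genes) and none lower, with a median ratio of 0.53. Over the 12 with at least 1 FPKM in Ctrl-KI, 4 were higher (1.97% over all such genes) and the median was 0.03. Timp3, an inhibitor held in the matrix, was at 4.05 and 80.4 FPKM (ratio 4.01). Mmp14, a membrane-bound collagenase, was at 12.9 and 81 FPKM, and Mmp2, the gelatinase it activates, at 6.63 and 31.3. Timp2, the most abundant inhibitor here, had overlapping bounds at 484 and 360.5 FPKM.

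The TGF-beta, BMP and myostatin list covers ligands, receptors, latency proteins, Smads and classic targets. Of 27 kept genes 6 were at least 2-fold higher (3.86% over all genes), none lower, and the median ratio was 0.16. The median over the 26 with at least 1 FPKM in Ctrl-KI was 0.11, with 5 higher (1.97% over all such genes). Among ligands, Inhba was at 0.56 FPKM (0.378 to 0.742) and 32 FPKM (23.4 to 40.5) (ratio 4.4) and Tgfb1 at 9.35 and 34.6 FPKM (ratio 1.78). The other TGF-beta ligands differed: Tgfb2 was at 7.7 and 8.74 FPKM, and Tgfb3, the most abundant of the 3, at 178 and 144, with overlapping bounds in both. Mstn, myostatin, an inhibitor of muscle growth, was the only gene of the list with bounds apart on the low side, at 6.47 FPKM (5.18 to 7.76) and 3.55 FPKM (2.81 to 4.29) (ratio -0.71). Receptors were near equal, as in Tgfbr1 (17.7 and 17.6 FPKM) and Acvr2b (1.24 and 1.23), apart from Tgfbr2 at 17.9 and 27.7 FPKM, where bounds were apart. Among the classic targets, Ctgf, connective tissue growth factor, was at 27.3 FPKM (22.1 to 32.4) and 367 FPKM (296 to 438). The inhibitory Smad gene Smad7, another target, was at 5.99 and 9.38 FPKM (ratio 0.57) and Smad3, the signal carrier, at 58.6 and 45.7. Of the binding proteins, Fstl1 was at 10.2 and 148 FPKM (ratio 3.73), Ltbp1, which stores latent TGF-beta, at 6.42 and 23.6, and Fst (follistatin) at 132 and 138.

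All 13 kept chemokine, cytokine and prostaglandin genes had ratios above 0 and 6 reached 2-fold, but 6 of the 13 were under 1 FPKM in Ctrl-KI. Of the other 7, 3 reached 2-fold, beside 1.97% of all such genes. Ptgs2, the inducible prostaglandin synthase, was at 1.24 FPKM (0.969 to 1.52) and 33.9 FPKM (27.5 to 40.2), and Csf1, a macrophage growth factor, at 14 and 49.2 FPKM. The monocyte attractants Ccl2 and Ccl7 were at 0.14 and 8.01 FPKM and at 0.0259 and 7.21 FPKM. Igfbp7 was the highest gene of the IGF list at 5.32 FPKM (0 to 10.7) and 149 FPKM (110.1 to 188); its control bounds are wide. The IGF ligands themselves were lower. Igf2, a growth factor made by differentiating myoblasts, was at 2236 FPKM (1789.9 to 2683) and 1315 FPKM (1006 to 1625) (ratio -0.77), and Igf1 at 12.2 FPKM (9.83 to 14.6) and 5.62 FPKM (4.5 to 6.74) (ratio -1.0, just short of 2-fold). Insr, the insulin receptor, was at 17.4 and 10.3 FPKM with bounds apart, and Igf1r at 21.6 and 20 FPKM with bounds that overlap. The Notch ligand Jag1 was the only gene of its list past 2-fold, at 2.11 and 17.4 FPKM. Of the immediate early genes, which respond to growth factors within minutes, 21 of 22 had ratios above 0. Bounds were apart on the high side for 8 (8.27% over all genes) and 2 reached 2-fold (3.86%). Of the 20 with at least 1 FPKM in Ctrl-KI, 1 reached 2-fold (1.97% over all such genes). Egr1 was at 41.1 and 69.8 FPKM, Myc at 14.1 and 26.5, and Jun, the single gene below 0, at 139 and 112.

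Some markers of other cell types were also higher in KI. Of 15 fibro-adipogenic markers, 11 were kept, all 11 had bounds apart on the high side (8.27% over all genes) and 9 were 2-fold higher (3.86%). Since 8 of the 11 were under 1 FPKM in Ctrl-KI and had to be higher, the count over the other 3 is 2; it was 5 of the kept markers with a pseudocount of 5 FPKM or with at least 5 FPKM in 1 column. The matrix list also holds 5 of the 15. The summed level of the kept markers was 33.0 FPKM in Ctrl-KI and 389.9 FPKM in KI. Pdgfra, the receptor that defines these cells, was at 0.162 and 1.19 FPKM, Ly6a at 0.0529 and 1.68, Lum was listed at 0 and at 0.579, and Tcf21 was listed at 0 in both. Dpp4, not kept, had the other order at 0.135 and 0.0464 FPKM. Of the pericyte and smooth muscle markers, 9 of 12 were kept and 4 were 2-fold higher (3.86% over all genes). They were Pdgfrb at 0.442 FPKM (0.334 to 0.549) and 26.7 FPKM (21.7 to 31.6), Cspg4 at 0.873 and 5.81, Tagln at 46.8 and 158 and Cnn1 at 0.0275 and 1.13. Of the 5 with at least 1 FPKM in Ctrl-KI, only Tagln was 2-fold higher and the median ratio was -0.33. Myh11, the smooth muscle myosin, was under 1 FPKM in both columns, at 0.0814 and 0.118. That list's summed level, dominated by Acta2 and Des, which young muscle cells also express, was 3518 and 2949 FPKM. Of 16 macrophage and immune markers 6 loci were kept, 4 of them 2-fold higher, all 4 of which were under 1 FPKM in Ctrl-KI and had to be higher by the filter. Neither of the other 2 reached 2-fold, and the summed level was 509.3 and 531.2 FPKM, nearly all from 2 merged loci. Lyz2, the macrophage lysozyme, was at 0.282 FPKM (0.14 to 0.423) and 31 FPKM (25 to 36.9), while Ptprc (CD45) was at 0.00345 and 0.224 FPKM and Csf1r at 0.00621 and 0.65. Itgam, also not kept, was lower in KI, at 0.689 and 0.331 FPKM. Of 14 endothelial markers 3 were kept (summed level 7.90 and 14.2 FPKM) and Eng was 2-fold higher at 2.12 and 7.64 FPKM. Among those not kept, Pecam1 was at 0.0243 and 0.219 FPKM, and Vwf was lower in KI, at 0.482 and 0.33. No erythroid marker was kept. In these bulk libraries, fewer cells of a type and less RNA per cell cannot be told apart, and the part of other cell types in the matrix and signalling values was not tested. All 10 markers of differentiating muscle were kept, with none at 2-fold, a summed level of 18995 FPKM in Ctrl-KI and 16026 FPKM in KI, and a median ratio of -0.18.

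**Figure D3:**
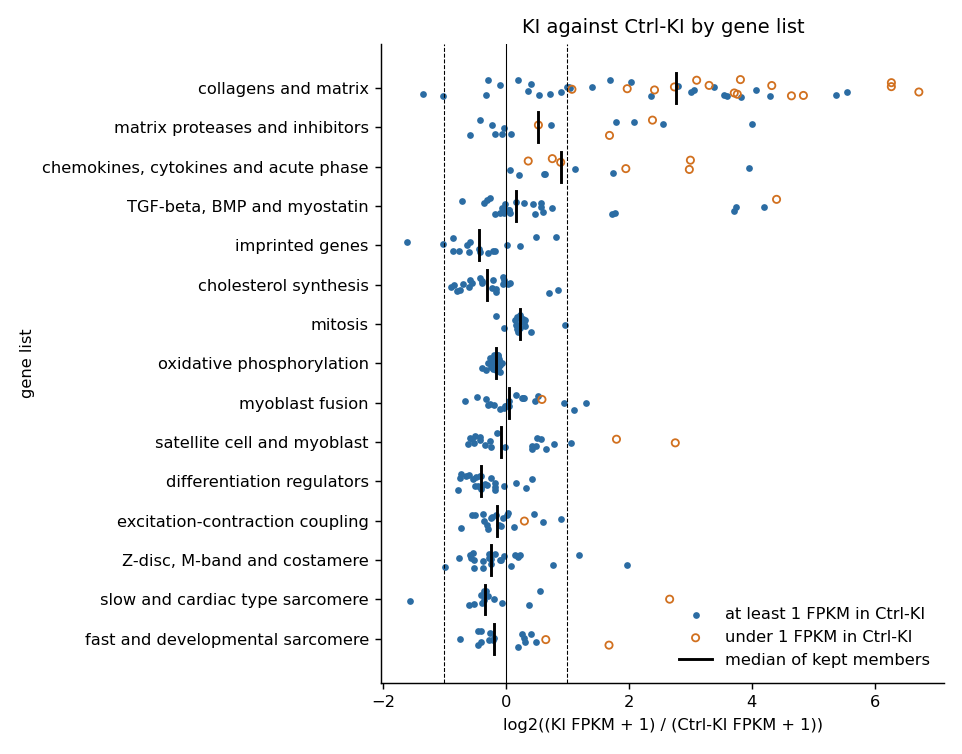
Log2 ratio of KI to Ctrl-KI on the log2(FPKM + 1) scale (x axis) for each kept gene of 15 lists (y axis). Filled points had at least 1 FPKM in Ctrl-KI, open points had less and had to be higher by the filter, and black bars are medians of all kept members. The matrix list has the rightmost median (2.77), and the muscle lists centre between -0.41 and 0.05.

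The central genes of the muscle programme were within 2-fold of the control. Myog, which drives terminal differentiation, was at 3201 FPKM (2468 to 3935) in Ctrl-KI and 2827 FPKM (2195 to 3459) in KI (ratio -0.18). The earlier factor Myod1 was at 906 FPKM (722 to 1090.2) and 619.9 FPKM (497 to 743) (ratio -0.55). Myf5, expressed in undifferentiated myoblasts, was at 5.91 and 8.76 FPKM and Pax7, the satellite cell factor, at 3.33 and 3.3. Bounds overlapped for all 4. None of the 23 kept differentiation regulators reached 2-fold, yet 20 had ratios below 0, 6 of these had bounds apart (3.73% over all genes), and the median was -0.41. Mef2a, a MADS-box partner of the myogenic factors, was at 234 FPKM (181 to 287) and 135 FPKM (105 to 165) (ratio -0.78), while Mef2c was at 113 and 99.6 FPKM with overlapping bounds. Ankrd1 was at 466 and 279 FPKM, and Tead4 had the highest ratio at 79.4 and 107 FPKM. The fusogen genes Tmem8c (myomaker) and Gm7325 (myomixer) were at 1070.2 and 1053 FPKM and at 327 and 324 FPKM, both within their bounds. In the satellite cell and myoblast list, 3 of 22 kept genes were 2-fold higher (3.86% over all genes) and none lower: Cav1 (caveolin-1), Cd34 and Fgfr4. Cav1 and Cd34 were under 1 FPKM in Ctrl-KI and had to be higher, which leaves 1 of 20. Cav1 was at 0.69 and 10.4 FPKM, Cd34 at 0.193 and 3.15 and Fgfr4 at 1.25 and 3.71; Cd34 is also in the fibro-adipogenic list.

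Most sarcomere genes gave small ratios on both sides of 0. In the fast and developmental list, 17 genes were kept, with 8 above 0, 9 below and a median of -0.19. Acta1, skeletal actin, was at 4333 FPKM (3253 to 5412) and 3622 FPKM (2766 to 4478), and Mylpf, a fast light chain, at 4151 and 3412. The myosin heavy chains differed in sign: embryonic Myh3 was at 569 FPKM (241 to 898) and 803 FPKM (601 to 1005), perinatal Myh8 at 104 and 137, and adult fast Myh1 at 289 FPKM (229 to 349) and 172 FPKM (138 to 206) (ratio -0.75), the only one of the 3 with bounds apart. Myh2, another adult fast chain, was at 0.494 and 3.78 FPKM and was the 1 gene of the 17 called 2-fold higher (3.86% over all genes). It was under 1 FPKM in Ctrl-KI and had to be higher. The 14 kept slow and cardiac type genes had a median of -0.33 and 11 below 0. Myl2, the slow light chain, was at 30.4 FPKM (23.4 to 37.3) and 9.61 FPKM (6.65 to 12.6) (ratio -1.56), the 1 gene of the 14 called lower (0.893% over all genes). The cardiac chain Myh6, at 0.258 and 6.97 FPKM, was the 1 called higher (3.86%). Myh6 was under 1 FPKM in Ctrl-KI and had to be higher. Cardiac actin, Actc1, was at 4646 and 3236 FPKM with overlapping bounds. Of 24 Z-disc, M-band and costamere genes, 2 were 2-fold higher (3.86% over all genes), Xirp2 (4.02 and 18.7 FPKM) and the stretch-responsive Ankrd2 (50.3 and 116). Ldb3, which holds Z-discs together, came nearest to 2-fold on the low side at 283 FPKM (220.3 to 346) and 142 FPKM (111 to 174) (ratio -0.99). Ckm, muscle creatine kinase, was at 143 and 152 FPKM. No gene reached 2-fold in the excitation-contraction coupling (20 kept), acetylcholine receptor and neuromuscular junction (10) or dystrophin-glycoprotein lists (12). All 36 kept oxidative phosphorylation genes had ratios below 0, with a median of -0.16 and no bounds apart, and 33 of 36 were below 0 after rescaling to TPM. Of 31 ribosomal protein genes 29 were also below 0, with a median of -0.08, but on the TPM scale 28 were above 0, so their sign depends on the scaling.

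Cell cycle genes stayed low in both groups, and the inhibitors that mark exit differed among themselves. The 18 kept mitosis genes summed to 113.6 FPKM in Ctrl-KI and 118.5 FPKM in KI, and none of them or of the 25 kept S phase genes reached 2-fold; 16 of the 18 had ratios above 0, with a median of 0.22. Cdkn1c (p57), an imprinted inhibitor expressed in differentiating myoblasts, was at 267 FPKM (216 to 318) and 86.8 FPKM (70.4 to 103) (ratio -1.61). Cdkn1a (p21) was at 1687 and 1432 FPKM with overlapping bounds. From the Ink4 locus, Cdkn2b, a known TGF-beta target, was at 10.9 FPKM (8.69 to 13) and 43.2 FPKM (35 to 51.4) and Cdkn2a at 79.2 and 136 FPKM. The cyclin gene Ccnd1 was at 20.8 and 31.7 FPKM with bounds that overlap.

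Cdkn1c belongs to the imprinted genes, which are expressed from 1 parental allele and include many growth regulators. Of 17 kept, 13 had ratios below 0, 8 had bounds apart on the low side (3.73% over all genes), 2 reached 2-fold lower (0.893%) and the median was -0.44. The 2 became 1 with a pseudocount of 5 FPKM, after centring, without merged loci and without small RNA genes. The 3 non-coding loci of the maternally expressed cluster on chromosome 12 stood at similar ratios: Meg3 (merged with 2 microRNAs) was at 88.4 and 48.5 FPKM, Rian (merged with AF357359) at 79.5 and 43.5, and Mirg with its microRNAs at 7.31 and 3.07. The lowest ratio of all ranked genes, LOC100861570, was at 79.9 FPKM (74.6 to 85.2) in Ctrl-KI and listed at 0 in KI; its record has the same mm9 locus as Rian, chr12:110841848-110899921, so the division of fragments between these records is uncertain. Grb10, a brake on insulin signalling, was at 121 and 77.6 FPKM with bounds apart, and Gnas at 1456 and 1195 with bounds that overlap. Ndn (necdin) was the exception with bounds apart on the high side, at 14.6 and 26.5 FPKM.

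Hox genes split by cluster. These transcription factors record the body position of a cell and are classic targets of H3K27 methylation and of UTX. All 5 kept loci of the Hoxb cluster, on chromosome 11, were lower in KI with bounds apart (3.73% over all genes). Of these, 4 reached 2-fold (0.893%), which became 1 with at least 5 FPKM in 1 column and 0 with a pseudocount of 5 FPKM. Hoxb8 was at 3.66 FPKM (2.77 to 4.54) and 0.602 FPKM (0.372 to 0.831) (ratio -1.54), Hoxb7 at 2.25 and 0.386, and the merged locus of Hoxb3 and Hoxb6 at 6.16 and 1.54 FPKM. Hoxb4 was at 3.46 and 0.753 FPKM and Hoxb2 at 2.95 and 1.29 (ratio -0.79), the only one of the 5 short of 2-fold. Hoxb8, Hoxb7 and Hoxb4 were under 1 FPKM in KI, so they entered only through Ctrl-KI and had to be lower. Of the loci above 1 FPKM in both columns, the merged locus of Hoxb3 and Hoxb6 reached 2-fold and Hoxb2 did not. Members of the cluster below 1 FPKM in both columns, such as Hoxb9 at 0.732 and 0.268 FPKM, had the same order. The 7 kept Hoxc loci, on chromosome 15, all had ratios above 0, with a median of 0.72. None reached 2-fold, and bounds were apart for 4 (8.27% over all genes). Hoxc12, at 0.843 FPKM in Ctrl-KI, entered only through KI and had to be higher. Hoxc10 was at 7.44 FPKM (5.94 to 8.95) and 13.3 FPKM (10.7 to 16), Hoxc9 at 3.4 and 6.86, and Hoxc13 at 2.3 and 4.85. Hoxa and Hoxd loci had no bounds apart; the most abundant in Ctrl-KI, Hoxa7 merged with Mira, was at 24.2 and 19.1 FPKM. All Hoxb values are under 7 FPKM, and neighbouring or overlapping transcripts within a cluster can share fragments.

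**Figure D4:**
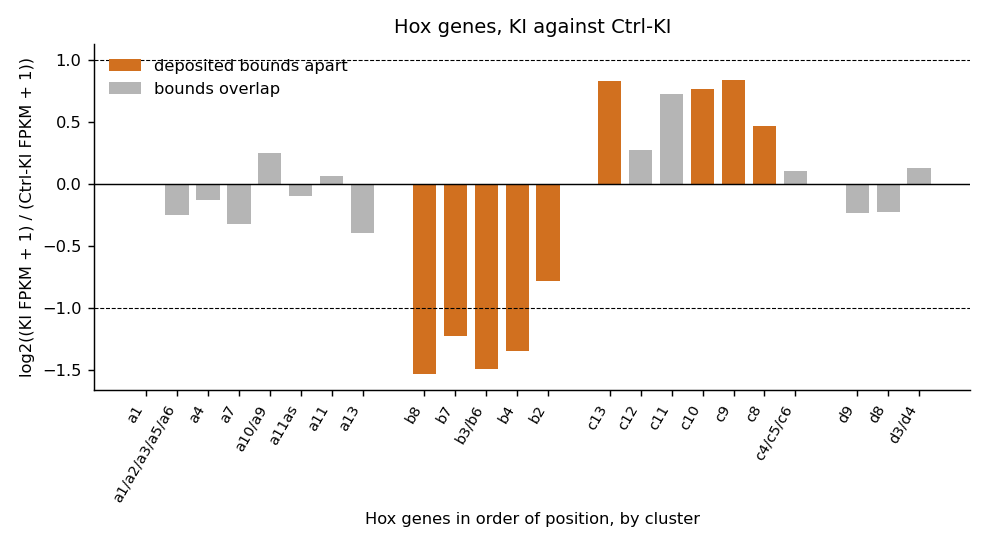
Log2 ratio of KI to Ctrl-KI on the log2(FPKM + 1) scale (y axis) for each kept Hox locus in order of position within its cluster (x axis, labelled by cluster letter and gene number, merged symbols joined by a slash). Orange bars have deposited bounds apart and dashed lines mark 2-fold. All 5 Hoxb bars lie below 0 and all 7 Hoxc bars above it.

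Beyond the lists, the low end of the ranking was mixed. Tubb3, a beta-tubulin known from neurons, was at 23.8 FPKM (19.3 to 28.3) and 2.82 FPKM (2.2 to 3.45) (ratio -2.7). Pttg1, securin, which holds sister chromatids together until anaphase, was at 17.1 FPKM (13.6 to 20.6) and 2.45 FPKM (1.77 to 3.13), whereas the mitosis list had a median ratio above 0. Lynx1, a modulator of nicotinic receptors, was at 15.5 and 2.32 FPKM. The axon guidance ligand Sema3d was at 47.6 FPKM (38.6 to 56.5) and 9.07 FPKM (7.35 to 10.8), and its relative Sema3e at 27.5 and 11.3. In the same guidance list 7 of 30 kept genes were 2-fold higher (3.86% over all genes) and 2 lower (0.893%), the former among them Unc5b (5.16 and 15.6 FPKM) and Efnb2 (5.6 and 14). The 7 became 4 with at least 1 FPKM in Ctrl-KI or at least 5 FPKM in 1 column, and 1 with a pseudocount of 5 FPKM, which also left 1 of the 2 lower. Gjd4, a gap junction protein of myogenic cells, was at 11.7 and 2.88 FPKM, Bid, a pro-apoptotic BH3 protein, at 23.8 and 7.74, and Deptor, an inhibitor of mTOR, at 82.2 and 30. The other ranked low genes were Parm1 (43.3 and 12.7 FPKM), Dock11 (8.27 and 1.9), Ogdhl (12.1 and 3.7), Dync1i1 (10.6 and 3.2) and Ctrb1 (18.8 and 6.18). With a pseudocount of 5 FPKM, Dock11, Ogdhl and Dync1i1 were no longer at 2-fold. The remaining ranked high genes outside the lists were Cd200, an immune-modulating surface protein, at 3.01 FPKM (2.37 to 3.66) and 77.7 FPKM (63 to 92.4), and Cd248, a stromal surface protein, at 0.205 and 21.5.

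Metabolic and stress lists stayed within 2-fold or nearly so. Of 22 kept cholesterol and fatty acid synthesis genes none reached 2-fold, 18 were below 0 and 6 had bounds apart on the low side (3.73% over all genes). Idi1, an isoprenoid isomerase, was at 25 and 13 FPKM and Insig1, a sensor of the pathway, at 36.2 and 20.4. None of 18 kept heat shock genes reached 2-fold (median -0.30), and 1 of 18 hypoxia-induced and 1 of 15 antioxidant genes did (3.86% over all genes higher). Each of these was under 1 FPKM in Ctrl-KI and had to be higher. Fgf21, a stress-induced hormone, was at 125 FPKM (101 to 148) and 201 FPKM (163 to 239), a ratio of 0.68 with bounds apart. Interferon-induced genes had none of 14 kept at 2-fold, with a median of 0.20.

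The knockouts of the series are in separate tables with 1 library per column, and by the labels they share no control library with KI. Kdm6a, the targeted gene, was at 20.8 FPKM in the female WT and 16.9 FPKM in the library labelled female KO (log2 ratio -0.29), and at 7.87 and 2.08 FPKM in the male pair (ratio -1.53). The female difference is under 2-fold, the deleted part of the gene is not given in the labels, and every female KO value below is that of the library so labelled. Across the 10041 genes kept in both tables, log2 ratios of KI and of the female KO had Pearson's r of 0.34 and Spearman's rho of 0.39. With the male KO, over 10245 genes, r was 0.46 and rho 0.47. These are correlations across genes, which are not independent replicates. Of the 347 shared genes 2-fold higher in KI, 89 were also higher in the female KO. That is 25.6% of the KI genes and 28.5% of the 312 KO genes, both counted among the shared genes. The shares of all genes set beside them are over every gene kept for that knockout, a wider set of 12344 in the female and 11440 in the male pair. In the female KO 4.49% of this set was called higher. With the male KO, 215 of 304 were shared, which is 70.7% of the KI genes and 25.0% of the 861 KO genes (9.9% of all genes). Part of the sharing with either knockout can follow from the filter. A gene under 1 FPKM in a control column was kept only through the other column and had to be higher. Of all 428 higher KI calls, 220 were of this kind, as were 527 kept genes of the female pair and 783 of the male pair. Their part in the shared calls was not counted. Lower calls were shared for 15 of 52 genes with the female KO (28.8% of KI, 3.34% of KO), where 4.4% of all genes were called lower. With the male KO they were shared for 28 of 71 (39.4% and 4.22%), beside 6.47% of all genes. The filter bears on lower calls too, since 32 of all 99 in KI were under 1 FPKM there and had to be lower. KI and male KO had opposite calls for 7 genes higher in KI and 6 lower in KI.

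The fast and developmental sarcomere list had a median ratio of -0.19 in KI, -1.31 in the female KO and -2.15 in the male KO, with 0 of 17, 13 of 17 and 10 of 13 genes at least 2-fold lower. Over all genes kept for each comparison, 0.893%, 4.4% and 6.47% were 2-fold lower. Each list was filtered separately in each comparison, so its counts need not rest on the same genes. Acta1 had a ratio of -0.26 in KI, -1.47 in the female KO and -2.56 in the male KO, and Myog had -0.18, -0.68 and -1.83. The ratios of Myod1 lay closer together, at -0.55 in KI, -0.87 in the female KO and -0.52 in the male KO. The fusion list had medians of 0.05, -0.06 and -0.25, with 2 of 22, 3 of 23 and 4 of 21 genes 2-fold higher and 0, 5 and 5 lower. Its medians hide wider gaps in the fusogen genes: Tmem8c had -0.02, -1.38 and -2.37 and Gm7325 -0.02, -1.16 and -2.68. Mef2c had -0.18, -0.96 and -2.68, and Ckm 0.08, -2.81 and -3.83. The mitosis list had medians of 0.22, 1.02 and 1.98, with 0 of 18, 14 of 27 and 27 of 27 genes 2-fold higher. Over all genes kept in each table, 3.86%, 4.49% and 9.9% were 2-fold higher. Of the 27 mitosis genes, 1 in the female WT and 8 in the male WT were under 1 FPKM and had to be higher. The KI set is smaller because 9 listed genes were under 1 FPKM in both of its columns, so the 3 counts rest on different genes. The matrix list had medians of 2.77, 0.67 and 1.04. Fn1 was at 140.5 FPKM in WT and 349 in KO of the female pair, at 27 and 327 in the male pair and at 20.6 and 225 in Ctrl-KI and KI. No test of these differences is possible with 1 column per group.

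The control columns also differed from each other. The tables were scaled separately, so levels set across them are approximate. Over the 44 kept matrix genes, the median level was 2.91 FPKM in Ctrl-KI, 30.9 FPKM in KI, 22.4 FPKM in the female WT, 36.5 FPKM in the female KO, 4.00 FPKM in the male WT and 8.97 FPKM in the male KO. Col1a1 was at 0.515 FPKM in Ctrl-KI, 127 in the female WT and 1.08 in the male WT, beside 158 in KI. Bgn was at 8.22, 210.5 and 11.1 FPKM in the same controls and at 379 FPKM in KI, and Lox at 1.85, 199 and 1.6, beside 132. Of the 15 genes with the highest ratios, the KI column lay nearer to the female WT library than Ctrl-KI did, on the log2(FPKM + 1) scale, for 12. Ctrl-KI lay nearer for the other 3, Lyz2, Cd200 and Cd248. These 15 genes were picked for their high ratio of KI to Ctrl-KI, and many were under 1 FPKM in Ctrl-KI. Any library that expresses them then tends to lie nearer to KI, so the 12 is in part set by that choice. No such count was made over all genes. The 11 kept fibro-adipogenic markers followed the same order as the matrix genes, with medians of 0.171 FPKM in Ctrl-KI, 6.58 FPKM in KI, 5.64 FPKM in the female WT and 0.424 FPKM in the male WT. Of these 11 markers, 8 were under 1 FPKM in Ctrl-KI and were kept only through KI, as were 15 of the 44 matrix genes. For these genes the filter fixed the order of Ctrl-KI and KI, so both sets of medians are in part set by it. The 10 fast sarcomere genes kept in all 3 tables had medians of 840.8 FPKM in Ctrl-KI, 770.3 FPKM in KI, 960.7 FPKM in the female WT and 1138 FPKM in the male WT. Whether the cell makeup of the cultures has a part in these levels was not tested.

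**Figure D5:**
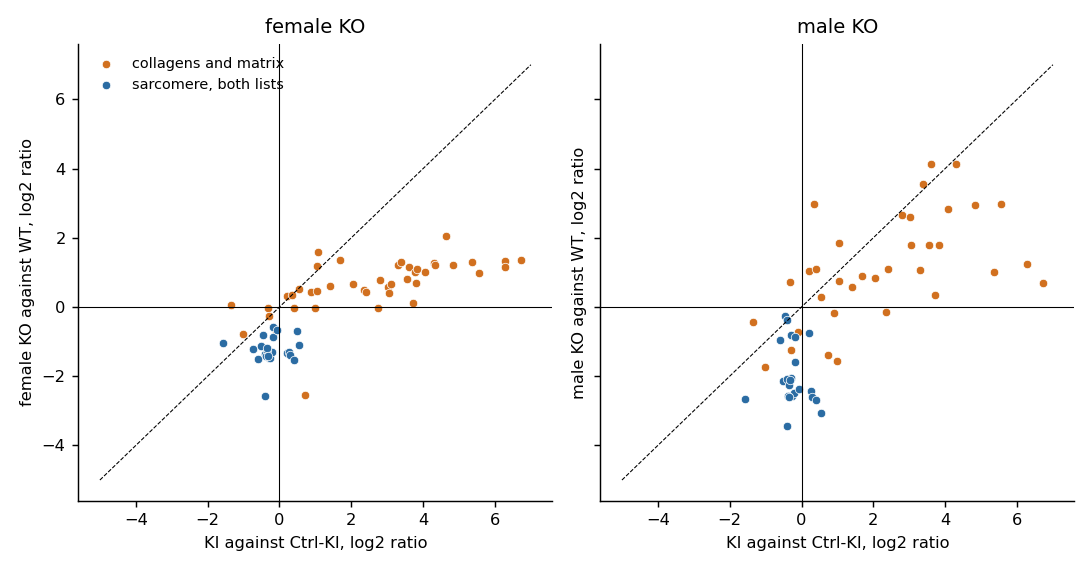
Log2 ratio of KI to Ctrl-KI (x axis) against log2 ratio of KO to WT (y axis) for matrix genes (orange) and sarcomere genes (blue), in the female pair (left) and the male pair (right), all on the log2(FPKM + 1) scale with a dashed line of equal ratios. Most sarcomere genes lie near 0 on the KI axis and below 0 on both KO axes, with exceptions such as Myl2 at -1.56 on the KI axis. Most matrix genes lie right of 0 on the KI axis.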

How the data were processed

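RNA sequencing measured gene expression in 2 KI and 2 Ctrl-KI libraries, grouped by their titles. Per the file headers, the authors deposited FPKM per locus in the tracking layout of Cufflinks, with bounds and a status, in 1 pooled column per group. The submitters' processing notes name build mm9, Cuffdiff, Cufflinks 2.2.1, TopHat2 2.0.12, Bowtie2 2.2.4, edgeR, bedtools 2.16.2 and HTSeq 0.6.1, without their roles. Loci without a symbol (5971) or with another status (15) were left out. The 632 kept loci with several symbols stayed merged.

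From the FPKM, log2 ratios were computed with a pseudocount of 1 FPKM (pandas 2.3.3), and the calculation was tested on simulated data. The planned test across libraries could not be run on pooled columns. Read depth is not given and was not recovered, so no counting intervals are given. Genes named are the 15 highest and 15 lowest single-symbol genes with at least 5 FPKM in 1 column and bounds apart, small RNAs left out, the 2 highest and 2 lowest of each list with at least 5 FPKM, a fixed set of 16 muscle and UTX genes, and members that complete a family. The members and all 48 lists were chosen with earlier results of these data known. Alternatives covered the pseudocount, filters, centring, TPM scaling, merged loci, small RNAs, status and bounds. Another, at least 1 FPKM in Ctrl-KI, was chosen after seeing the data. Promoters are RefSeq windows (GRCm38.p6), a different build from the tables. Some genes are not reported here.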

Additional observations from a re-analysis of the deposited data

Results flagged for a closer look

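Loci without a gene symbol, which no comparison used, held 77.6% of the summed FPKM in KI and 57.1% in Ctrl-KI, a signal above the control level in data outside the main measurement. Of the 449 such loci with at least 1 FPKM in 1 column, KI was above Ctrl-KI with bounds apart for 93 and below it for 55. The 10 highest held 63.3% of the KI sum over all loci, and the median width of the 449 was 2240 bases.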

How the results depend on the processing

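No paired analysis was possible because the table holds 1 pooled column per group, and leaving out a library and the replicate block were not run for the same reason. No alternative reversed the direction of a called difference. The 428 higher genes became 177 with a pseudocount of 5 FPKM, 262 with at least 5 FPKM in 1 column, 680 on the TPM scale and 208 with at least 1 FPKM in Ctrl-KI. The 99 lower genes became 168 with a pseudocount of 0.1 FPKM and 47 with 5 FPKM. The TPM scale moved the median ratio from -0.04 to 0.06. With a pseudocount of 5 FPKM, the KI calls shared with the female KO were 16% of higher and 12% of lower ones, and with the male KO 56.9% and 53.3%; with at least 5 FPKM in 1 column, 81.5% of higher ones were shared with the male KO. The 32 higher matrix genes became 17 with at least 1 FPKM in Ctrl-KI, and the 2 lower ones became 1 after centring and 1 on the TPM scale. The fast sarcomere gene called higher became 2 with a pseudocount of 0.1 FPKM, and 0 with 5 FPKM, with at least 5 FPKM in 1 column and with at least 1 FPKM in Ctrl-KI; the slow sarcomere gene called higher became 0 under that last filter. For 45 named genes, 478 of 481 alternative values stayed on their side of 2-fold; the other 3 were Dock11 (-0.94), Dync1i1 (-0.93) and Ogdhl (-0.97) with a pseudocount of 5 FPKM. Of the 481, 45 lay outside the range of ratios that the deposited bounds give. Filters act by removing genes; other causes were not tested. Bounds come from pooled columns and hold no measured spread between mice, and without counts the depth behind low values is unknown.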

Other observations

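Further genes outside the lists also differed by at least 2-fold, and these were chosen after their values were seen. Mgp, an inhibitor of calcification, was at 34.7 FPKM in Ctrl-KI and 313 FPKM in KI (log2 ratio 3.14), and Emp1, a membrane protein, at 14.5 and 175 FPKM (ratio 3.51). Actin-binding genes on the high side included Tagln2 (12.5 and 49.6 FPKM), Tpm4 (41.6 and 140 FPKM) and Lasp1 (6.01 and 30.8 FPKM). On the low side, Itm2a, a membrane protein of differentiating muscle and cartilage, was at 411 and 183 FPKM, Asb2, a ubiquitin ligase subunit, at 50.6 and 19.9 FPKM, and Lbx1, a homeobox factor of migrating muscle precursors, at 44.4 and 18 FPKM.

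The share of kept genes called differed between chromosomes, as a description only. The share 2-fold higher was lowest on chromosome X at 1.69% (6 of 355) and highest on chromosome 18 at 6.38% (18 of 282). Over all genes it was 3.86%. The share 2-fold lower was lowest on chromosome 4 at 0.284% (2 of 703) and highest on chromosome X at 1.97% (7 of 355). Over all genes it was 0.893%. Lower calls were few on each chromosome, and the spread was not tested. Of the loci with a symbol that were left out for their status, Neb, Dysf, Hspg2 and Palld had a failed estimate in at least 1 column, and H19 was listed at 0 with too few data.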
